A study of Mus musculus with 16 samples.

Results

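The mitotic kinase and spindle genes described here are Plk1, Aurka, Nek2, Pbk, Kif2c, Kif11, Tpx2, Cep55, Cdca8 and Cdca3. They are 10 of the 7114 named genes on the arrays and were measured by 12 of 15247 probes, taken where the platform annotation gives one of these symbols alone. They were chosen with the difference between M833 and WT in view, so that difference is described for them without a test. The study hybridised total RNA of 2 types of mouse cells, WT and M833, against one common reference RNA on two-colour arrays, under a title about mutations of Met, a receptor tyrosine kinase, in mouse embryonic fibroblasts (MEFs). Each cell type had 8 arrays, 4 with the cells in Cy5 and 4 with the cells in Cy3. The labels give neither what M833 stands for nor a strain, an allele, an age or a treatment, and they do not say how many cultures, clones or embryos the arrays came from. Values are log2 ratios. They were read as cells over reference because the titles name the cells first, but the direction is not stated. Arrays of both dye orientations varied together, so they share one direction, whichever it is. A value of 0 means the same signal as in the reference, and 1 means 2-fold more.

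Mitosis is driven by a wave of protein kinases that build the spindle, attach chromosomes to it and time their separation. Kinesins are motor proteins that slide or shorten the microtubules of the spindle, and passenger and midbody proteins act at the centromere and then at the bridge between the daughter cells. The genes of this machinery are transcribed mainly in G2 and M phase, so their transcripts are used as a readout of cycling cells in growing fibroblast cultures. Many of them are repressed in resting cells by the DREAM complex, which binds a short promoter element called the cell cycle genes homology region (CHR), and many also carry CCAAT boxes, the binding site of NF-Y.

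Promoters from RefSeq (build GRCm38.p6), with 250 bases before and 50 bases after the transcript start, are described for 7 of the 10 genes. They are Plk1, Aurka, Nek2, Kif2c, Kif11, Cep55 and Cdca3. The CHR core TTTGAA was searched on both strands and was found in 6 of these 7 genes, against 20.2% of the 27025 genes in the table and 14.4% of the 5751 named array genes with a promoter. Among 84 other mitotic genes with a promoter, from the list described below, the share was 42.9%. The stretches of 30 bases around the matches are shown because this short element is what most of the 7 genes have in common. Each reads 5′ to 3′ on the strand of the match, with the motif in capitals.
Plk1: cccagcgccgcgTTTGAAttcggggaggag
Aurka: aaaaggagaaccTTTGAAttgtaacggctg
Cdca3: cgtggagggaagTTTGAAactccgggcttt
Cep55: cgcttccgggagTTTGAAtcccgcggctgt
Kif11: ccgcgcctcaatTTTGAAaaatggagacga
Kif2c: gcattactcaggTTTGAAagagcagcctgg
The stretches lie at chr7:122159453-122159482 on the plus strand (Plk1), chr2:172370521-172370550 minus (Aurka), chr6:124830194-124830223 plus (Cdca3), chr19:38054996-38055025 minus (Cep55), chr19:37376351-37376380 minus (Kif11) and chr4:117178858-117178887 plus (Kif2c). Counting the first transcribed base as 1, the motif began at 31 in Plk1 and Cdca3 and at 33 in Aurka, all on the coding strand. It stood on the opposite strand in Kif11 at -19, in Kif2c at -103 and in Cep55, whose 2 starts put it at 25 and -33. Only starts with a match are given, and some lay inside the annotated gene. The Kif2c start was at 117178772, in a gene on the minus strand that spans 117159633 to 117182624. The Cdca3 start was at 124830176, in a gene on the plus strand that begins at 124829530. In 5 of the 7 genes the motif lay within 50 bases of the start, a limit chosen after the positions were seen. This held for 5.72% of all genes in the table and for 35.7% of the 84 other mitotic genes. The variant core TTCGAA was in 0 of the 7 genes and in 1.8% of all genes.

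CCAAT, searched on both strands, was found in 5 of the 7 genes. It was in 41.1% of all genes in the table and in 58.3% of the 84 other mitotic genes with a promoter. Cdca3 had 3 matches, Aurka and Nek2 had 2 each, and Plk1 and Kif11 had 1 each. The 120 bases before the start are shown for Plk1 and Nek2, the kinase genes with the largest differences below. They read 5′ to 3′ along the gene, with CCAAT in capitals.
Plk1: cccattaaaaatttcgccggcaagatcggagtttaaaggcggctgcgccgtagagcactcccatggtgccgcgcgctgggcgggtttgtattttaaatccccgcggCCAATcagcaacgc
Nek2: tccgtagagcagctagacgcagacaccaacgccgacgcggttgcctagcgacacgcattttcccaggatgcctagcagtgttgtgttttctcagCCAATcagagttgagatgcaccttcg
These stretches are chr7:122159315-122159434 and chr1:191821353-191821472, both on the plus strand. Nek2 was the gene without TTTGAA in the stretch searched. Both motifs were present in 4 of the 7 genes, against 8.97% of all genes and 32.1% of 84 other mitotic genes with a promoter. These are matches of letters, and binding was not measured here.

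**Figure D1:**
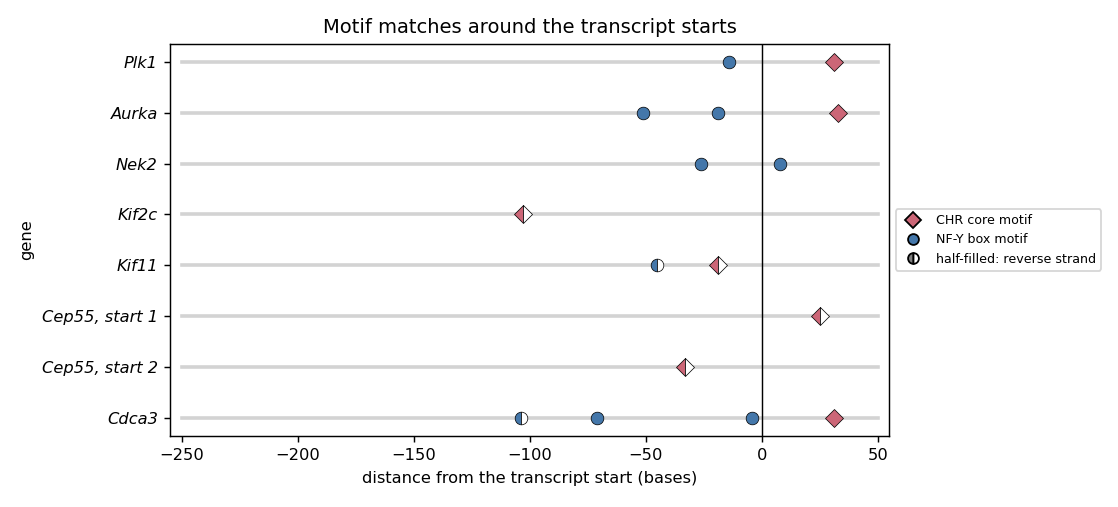
Positions of the CHR core (diamonds) and of the NF-Y box (circles) between 250 bases before and 50 bases after the transcript start for 7 genes, with Cep55 drawn for both of its starts. Filled symbols are on the coding strand and half-filled ones on the opposite strand. The CHR core sits within 50 bases of a start in 5 of the genes and at -103 in Kif2c, counted from a start inside that gene. Only starts with a match are drawn.

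Across the arrays the genes formed 2 groups. Plk1, Aurka, Nek2, Pbk, Kif2c, Cep55 and Cdca8 were higher in M833 by 0.65 to 0.84 on the log2 scale, and Kif11, Tpx2 and Cdca3 by 0.11 to 0.17. The median difference of the 10 genes was 0.68, against -0.034 over all 12761 features. In 6 of the 10 every M833 array lay above every WT array, which was the case for 1.82% of all features, and nothing is read from that count because the genes were chosen on this contrast. In such cultures a larger share of cells in mitosis and more RNA per mitotic cell cannot be told apart.

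Plk1 encodes the polo-like kinase that matures centrosomes and drives entry into and exit from mitosis. Its WT arrays ran from -0.46 to 0.17 with a median of -0.17, and its M833 arrays from 0.59 to 0.81 with a median of 0.64. All 8 M833 arrays were above the highest WT array, and the difference was 0.83 ± 0.096 (SE, n = 8 per cell type), or 1.78-fold. Aurka encodes aurora A, the kinase of the spindle poles. It ran from -0.077 to 0.20 in WT (median -0.041) and from 0.45 to 0.90 in M833 (median 0.67). The groups did not overlap, and the difference was 0.65 ± 0.056. Nek2 encodes the kinase that splits the centrosome pair before mitosis. Its WT arrays lay between -0.38 and 0.26 (median -0.031) and its M833 arrays between 0.71 and 0.96 (median 0.80), without overlap. The difference of Nek2, 0.84 ± 0.092 or 1.79-fold, was the largest of the 10 genes. In the order of signed differences, from the most higher in M833 downward, Nek2 stood at rank 5 of all 7114 named genes and Plk1 at rank 6.

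Pbk encodes a mitotic kinase of the MAPKK family that is also called TOPK. It differed from the other kinase genes in its spread, from -0.90 to 0.12 in WT (median -0.47) and from 0.068 to 0.50 in M833 (median 0.29). The arrays overlapped, and 6 of 8 M833 arrays were above the highest WT array. The difference was 0.70 ± 0.14.

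Kif2c encodes a kinesin that removes tubulin from microtubule ends and so corrects faulty attachments. Its WT arrays ran from -0.26 to 0.69 (median -0.038) and its M833 arrays from 0.70 to 1.09 (median 0.86). The highest WT array reached almost to the lowest M833 array, and the difference was 0.76 ± 0.14 (SE, n = 8 per cell type), or 1.70-fold. Kif11 encodes the kinesin that pushes the spindle poles apart. It ran from -0.30 to 0.10 in WT, with a median of -0.105, and from -1.11 to 0.35 in M833, with a median of 0.225. M833 replicate 2 alone gave the low value, and the other 7 M833 arrays lay between 0.089 and 0.35. The difference of Kif11 was 0.17 ± 0.16 over all arrays and 0.33 ± 0.056 without that array. Tpx2 encodes the spindle assembly factor that activates aurora A. Its WT arrays ran from -0.066 to 0.53 (median 0.044) and its M833 arrays from 0.030 to 0.29 (median 0.21). The WT value of 0.53 came from replicate 7, and the other 7 WT arrays were at 0.115 or below. The difference of Tpx2 was 0.11 ± 0.069, and 0.17 ± 0.041 without WT replicate 7. Aurka and its activator Tpx2 were thus not alike in size, with fitted differences of 0.65 and 0.11.

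Cep55 encodes a midbody protein that recruits the machinery of final abscission. It ran from -0.23 to 0.40 in WT (median 0.039) and from 0.56 to 1.03 in M833 (median 0.88), without overlap, and the difference was 0.75 ± 0.11. Cdca8 encodes borealin, a subunit of the chromosomal passenger complex. It ran from -0.89 to -0.47 in WT (median -0.71) and from -0.16 to 0.064 in M833 (median -0.020). Its arrays did not overlap either, and the difference was 0.65 ± 0.063 (SE, n = 8 per cell type). Cdca3 encodes an F-box-like protein, also known as Tome-1, that promotes the destruction of the mitotic inhibitor kinase Wee1. Its WT arrays lay between -0.88 and -0.19 (median -0.67) and its M833 arrays between -0.68 and -0.22 (median -0.43). No M833 array was above the highest WT array, and the difference was 0.14 ± 0.085.

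**Figure D2:**
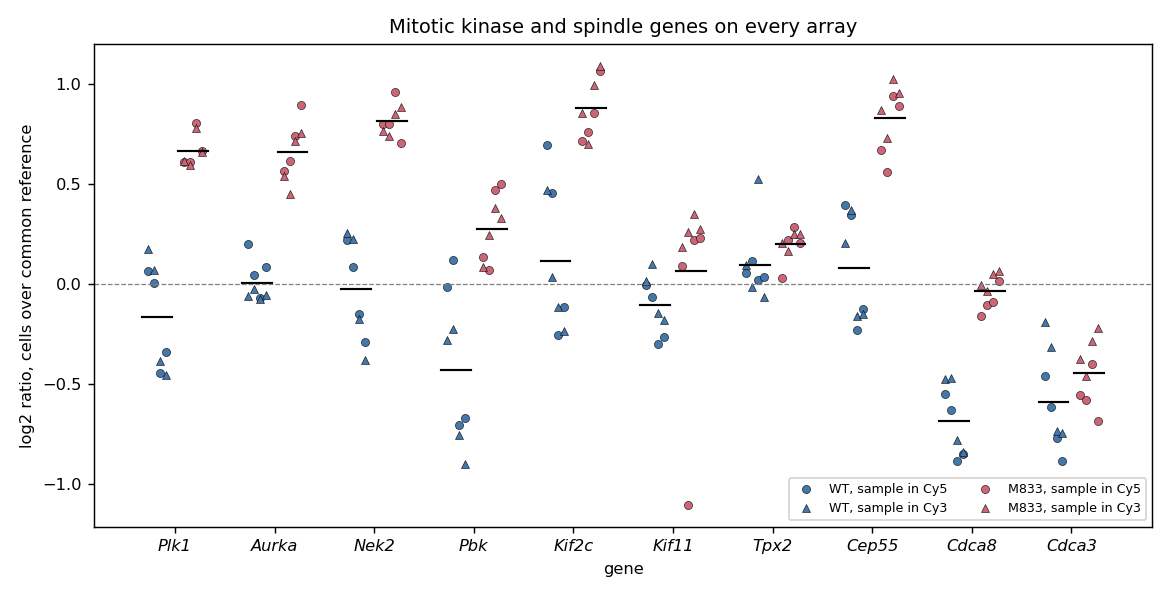
Log2 ratio of cells over the common reference for each of the 10 genes on all 16 arrays, with WT in blue and M833 in red. Circles have the cells in Cy5, triangles in Cy3, and black bars are means of 8 arrays. Plk1, Aurka, Nek2, Kif2c, Cep55 and Cdca8 show no overlap, and the single M833 array of Kif11 at -1.11 and the single WT array of Tpx2 at 0.53 lie apart from their groups.

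Both Cep55 and Cdca3 had 2 probes. Those of Cep55 were alike, with differences of 0.79 ± 0.11 and 0.71 ± 0.12. Those of Cdca3 went in opposite directions. The first Cdca3 probe ran from -0.29 to 0.56 in WT and from 0.24 to 0.80 in M833, a difference of 0.40 ± 0.11. The second ran from -1.69 to -0.74 in WT and from -1.99 to -1.03 in M833, a difference of -0.11 ± 0.072. The second probe also depended on the dye, with a mean of -1.68 over the arrays with the cells in Cy5 and -1.05 over those with the cells in Cy3, where the first had 0.45 and 0.22. The small averaged difference of Cdca3 therefore joins probes that did not share a direction. The sources used here do not say which transcript each probe detects.

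**Figure D3:**
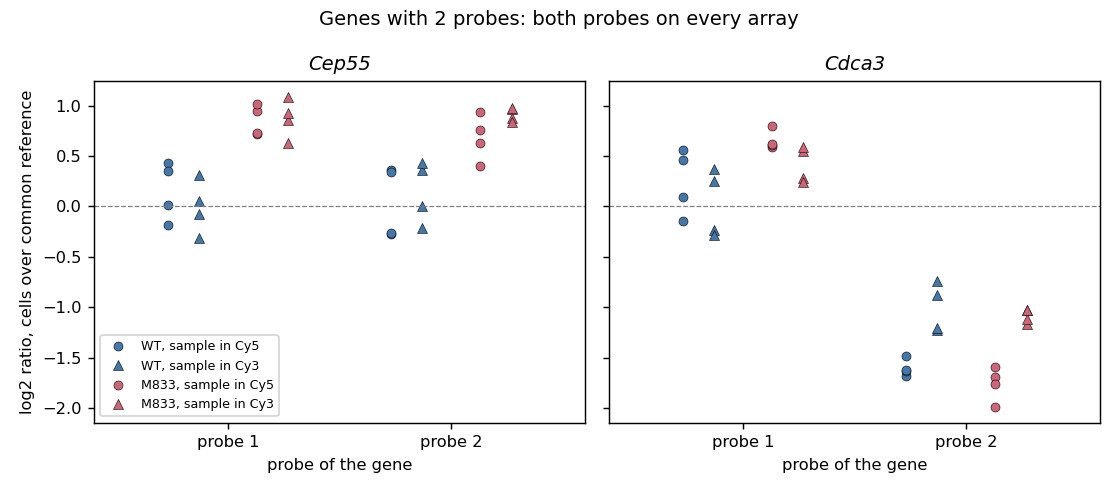
Both probes of Cep55 (left) and of Cdca3 (right) on every array, as log2 ratio of cells over reference, in the colours and symbols of the cell types and dyes given in the key. Both probes of Cep55 are higher in M833, while of the Cdca3 probes the first is higher in M833 by 0.40 and the second, with means of -1.31 in WT and -1.42 in M833, is not.

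The arrays of one cell type were not exchangeable for these genes. WT replicates 1, 2, 5 and 6 had been found in an earlier analysis to deviate together from replicates 3, 4, 7 and 8, with 2 arrays per dye in each set, and the labels name no reason. The mean of the 10 genes lay between -0.025 and 0.060 on the first set and between -0.40 and -0.28 on the second. Over the M833 arrays it lay between 0.19 and 0.37 on replicates 1, 2, 5 and 6 and between 0.45 and 0.51 on replicates 3, 4, 7 and 8. Thus 9 of the 10 genes were higher in the first WT set than in the second, where 56.2% of all features were, and 10 of 10 were higher in the second M833 set than in the first, where 52.9% of all features were. The median gap between the WT sets was 0.42 for these genes and 0.025 for all features, and that between the M833 sets was 0.18 and 0.0055.

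Pbk had the widest gap between the WT sets, with a mean of -0.099 on the first and -0.76 on the second. Kif2c stood at 0.42 and -0.18, Cep55 at 0.33 and -0.17, Plk1 at 0.078 and -0.41, and Nek2 at 0.20 and -0.25. In 8 of the 10 genes all 4 arrays of the first WT set lay above all 4 of the second, the exceptions being Aurka and Tpx2, and 11% of all features did so. Aurka was nearly level between the WT sets, at 0.040 and -0.029, and had its gap in M833, at 0.54 and 0.78. The smallest difference between a set of M833 and a set of WT was 0.53 for Plk1, 0.50 for Aurka, 0.58 for Nek2 and 0.46 for Cdca8. It was 0.38 for Cep55, 0.34 for Kif2c and 0.23 for Pbk, and it was below 0 for Kif11 (-0.15) and Cdca3 (-0.097). The Kif11 value used the M833 set with replicate 2 at -1.11, whose other arrays were at 0.089, 0.18 and 0.26. The largest difference between a set of M833 and a set of WT was 1.18 in both Pbk and Kif2c. Without the first WT set the median difference of the 10 genes was 0.90, and without the second it was 0.48.

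**Figure D4:**
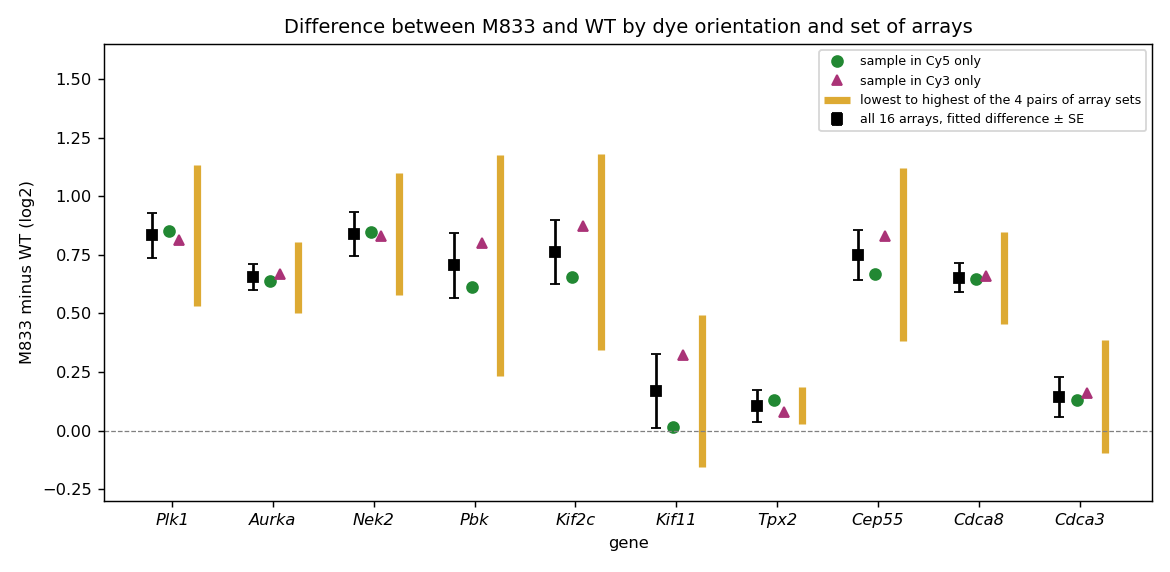
M833 minus WT in log2 for each gene: the fitted difference over all 16 arrays with its standard error (black), the difference within each dye (green and purple), and the span from the lowest to the highest difference between a set of 4 M833 arrays and a set of 4 WT arrays (yellow). The spans stay above 0 except in Kif11 and Cdca3, and they are widest in Pbk and Kif2c. The low end for Kif11 uses the M833 set that holds replicate 2 at -1.11.

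The orientation of the dyes, which played no part in the choice of the genes, was tested as an interaction with cell type. In the arrays with the cells in Cy5 the differences of Nek2, Plk1 and Aurka were 0.85, 0.85 and 0.64, and in those with the cells in Cy3 they were 0.83, 0.81 and 0.67. Kif11 had 0.017 and 0.32, with the low M833 replicate 2 among the arrays in Cy5. Pbk had 0.61 and 0.80, Kif2c 0.65 and 0.87, and Cep55 0.67 and 0.83. The interaction was called in 0 of the 10 genes by limma with Benjamini-Hochberg adjustment, and 0 of 10 had an unadjusted p under 0.05. Among all features 0% were called and 2.83% had an unadjusted p under 0.05.

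The levels against the reference rest on the WT and M833 arrays that entered the choice of the genes, so they are given as a description and nothing is read from their counts. In WT the genes lay close to the reference or below it. The WT mean was called different from 0 in 4 of 10, all below the reference, while 79.2% of all features were called in either direction (limma, adjusted p under 0.05). Those were Plk1 at -0.16 ± 0.068 (SE), Pbk at -0.43 ± 0.097, Cdca8 at -0.69 ± 0.044 and Cdca3 at -0.59 ± 0.060. In M833 8 of 10 were called, against 72.4% of all features. The mean was above the reference in 7 of them, from 0.20 ± 0.049 for Tpx2 to 0.88 ± 0.096 for Kif2c, and below it in Cdca3 at -0.45 ± 0.060. The M833 mean of Cdca8 was -0.033 ± 0.044, near the level of the reference.

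Of 124 other mitotic genes listed by class, with cyclins and Mki67 left out, 99 were measured. The list was written with an earlier result for cell cycle genes known, and some of its genes were part of that result. In M833 65 of the 99 rose, 1 fell and 33 did not pass the test, where 10.0% of all features rose and 15.9% fell (limma with dye orientation in the model, Benjamini-Hochberg adjusted p under 0.05 over 12761 features). Of all 3301 features called, 1276 were higher, and with each array centred on its median 1558 of 3193 were. The median difference of the 99 genes was 0.27 and the largest 0.70. Without the first WT set 75 were higher and 2 lower, with 13.8% of all features higher, and without the second 52 were higher and 6 lower, with 14.5% of all features higher. With the sets of 4 arrays as a random block 49 were higher and 0 lower, and 4.4% of all features were higher. With set means in place of arrays, 2 against 2, limma called 0 of them, as it called 0 of all features; at an unadjusted p under 0.05 it had 28 of the 99 higher (28.3%) against 4.57% of all features. Apart from the fits with the random block or with set means, the p-values given here measure only the spread between arrays. The fit with set means measures the spread between sets, and the random block takes in both. As the labels do not name separate cultures, either spread may be technical.

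Among the other mitotic kinases 8 of 12 rose and 1 fell, and 5 were higher and 0 lower with the random block. Ttk, the kinase at the head of the spindle checkpoint, rose by 0.61 ± 0.14 (adjusted p = 0.00416, limma), Bub1b by 0.60 ± 0.16 and Bub1, also of that checkpoint, by 0.59 ± 0.087. Nek9, a kinase upstream of spindle pole separation, fell by 0.24 ± 0.075 (adjusted p = 0.0272, limma), a call that was lost with the random block (adjusted p = 0.0802), without WT replicates 1, 2, 5 and 6 (-0.054), and without single arrays: M833 replicate 2 (adjusted p = 0.0525), WT replicate 5 (0.0511) or WT replicate 6 (0.0541). Melk (0.027 ± 0.037) and Aurkc (-0.13 ± 0.052), the aurora kinase best known from germ cells, did not pass the test. Of 5 measured kinesins of the spindle 4 rose, among them the cytokinesis motors Kif14 by 0.65 ± 0.089 and Kif23 by 0.53 ± 0.12, and the chromosome arm motor Kif22 by 0.52 ± 0.089. The centromeric motor gene Cenpe, at -0.013 ± 0.050, did not pass.

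The class listed as passenger and cytokinesis genes was the one class in which all measured members rose, 7 of 7. As listed it also held Cdca2 and Cdca5, which have other functions, while the cytokinesis motors Kif14 and Kif23 were listed as kinesins. The largest increases in the class were in Cdca2 (0.61 ± 0.099), a chromatin-bound phosphatase partner, and in Cdca5 (0.60 ± 0.095), the cohesion factor sororin. Anln (0.59 ± 0.089), which encodes the contractile ring protein anillin, came next. Adjusted p-values in limma for these 3 genes ran from 0.000176 to 0.000319. Without the second WT set 6 of the 7 were still higher. In the class of spindle and centrosome proteins 13 of 18 rose and none fell. Nusap1, a spindle microtubule bundler, rose by 0.66 ± 0.19, Aspm, a spindle pole protein, by 0.62 ± 0.12 and Spag5, also called astrin, by 0.59 ± 0.12. Nusap1 was at 0.16 and not called without the second WT set (adjusted p = 0.104, limma). The plus-end binding gene Mapre1 (0.010 ± 0.036) and Ckap2 (-0.094 ± 0.044) did not pass the test.

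Kinetochore and centromere genes rose in 14 of 22 cases and fell in none. With the random block 8 were higher, and without the second WT set 10 were higher and 1 lower. Ndc80, which holds the microtubule at the kinetochore, rose by 0.68 ± 0.16, the cohesin protector gene Sgo1 by 0.59 ± 0.089 and Cenpa, which encodes the centromeric histone, by 0.55 ± 0.11. The constitutive centromere genes Cenpt (-0.0013 ± 0.063) and Cenpb (-0.018 ± 0.057) did not pass. In the class of the checkpoint and the anaphase-promoting complex, the ubiquitin ligase that ends mitosis, 11 of 21 rose and none fell, with a median of 0.11. With the random block 6 were higher, and without the second WT set 8 were higher and 2 lower, with a median of 0.036. The largest increases were in Ube2c, which encodes a ubiquitin-conjugating enzyme, in the activator gene Cdc20 and in the phosphatase gene Cdc25c. Ube2c rose by 0.70 ± 0.093 (adjusted p = 5.78e-05, limma), Cdc20 by 0.66 ± 0.077 (adjusted p = 1.68e-05, limma) and Cdc25c by 0.57 ± 0.12. The complex subunit gene Cdc26 (0.019 ± 0.031) and Mad2l2 (-0.027 ± 0.040) did not pass. Of condensin, cohesin and topoisomerase genes 8 of 14 rose and none fell, led by Top2a at 0.68 ± 0.13, Ncapg2 at 0.55 ± 0.077 and Smc4 at 0.46 ± 0.13. Stag2 (0.053 ± 0.056) and Ncapd3 (-0.042 ± 0.23) did not pass. Without WT replicate 2 Ncapd3 was at 0.20 and called higher (adjusted p = 0.039, limma). Without WT replicates 1, 2, 5 and 6 Ncapd3 (0.27) and Stag2 (0.15) were both called higher. Of the other genes named as not passing, Aurkc, Ckap2 and Cenpt were called lower and Mapre1 higher in some settings. Smc4 was at 0.12 and not called without the second WT set (adjusted p = 0.11, limma).

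The 23 named increases of this comparison, the replication genes Mcm6 and Tk1 included, lay above the mean of the WT arrays on 8 of 8 M833 arrays, though they were picked for their size. Of all 24 named calls 12 were lost without M833 replicates 3, 4, 7 and 8, and 6 without M833 replicates 6, 7 and 8, with the sign kept in 24 of 24. The titles of these last 3 arrays end in numbers of another range than those of all other arrays, and no WT array has such a number. The labels do not say what the numbers stand for. Without them 40 of the 99 other mitotic genes were higher, against 6.72% of all features. Replication licensing and nucleotide supply genes, which act in the S phase before mitosis, had 11 of 14 higher, none lower and a median of 0.39. That is 78.6% higher, against 65.7% of the 99 other mitotic genes. With the random block 11 replication genes were higher, against 49 of the 99, and without the second WT set 11, against 52 of the 99. Mcm6 at 0.745 ± 0.12 and Tk1 at 0.65 ± 0.15 led the replication genes. The difference between the replication and mitotic genes was not tested.

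**Figure D5:**
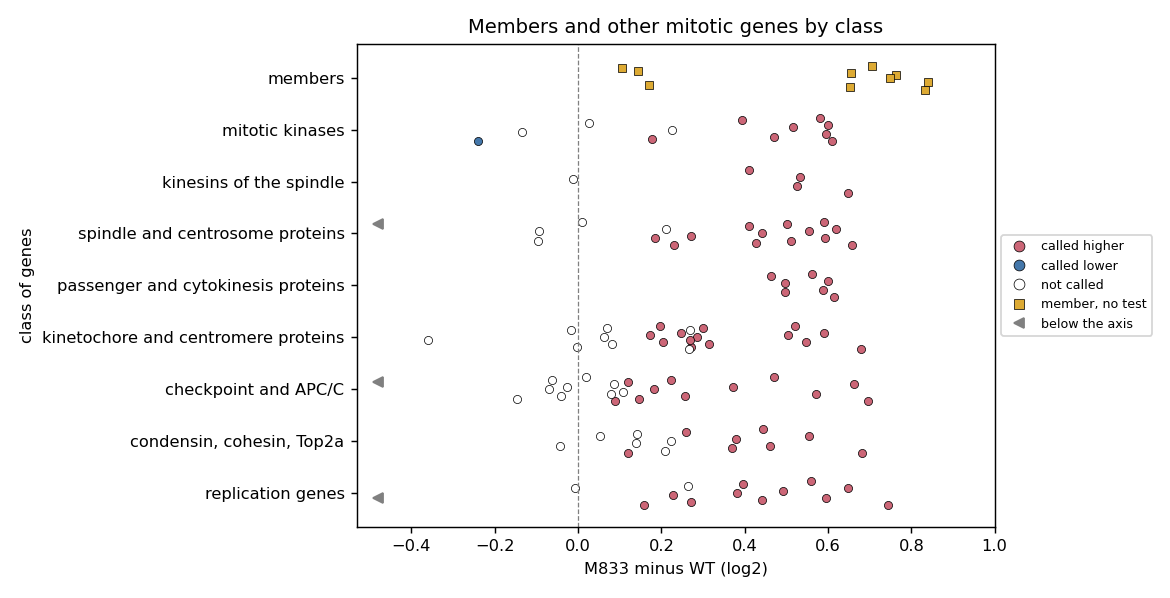
M833 minus WT in log2 for the 10 genes (squares, untested) and for the other mitotic genes by class, with replication genes for comparison (circles, red where called higher, blue where called lower, white where not called). Grey arrowheads mark Haus8, Mad2l1 and Mcm10, which lie below the axis. Most of the mitotic classes reach 0.6 to 0.7, the 7 larger squares lie at 0.65 to 0.84, and the 3 smaller squares lie at 0.11 to 0.17.

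Over the 16 arrays the genes whose dye-adjusted profile lay closest to the mean profile of the 10 were Sgo1, Tacc3, Plk4, Bub1, Cdc20 and Ncapg2, in that order. Their root mean square distance from the mean profile, each centred on its own mean, was 0.051 for Sgo1 and 0.072 for Ncapg2, against a median of 0.35 over the 7104 named genes compared. All 6 stood on the list of 99 other mitotic genes, which were 99 of the 7104 compared. Nothing is read from this, because the profile holds the difference on which the 10 genes were chosen. The list was also written with an earlier result for cell cycle genes known. The gaps of the 6 genes between the WT sets ran from 0.34 for Cdc20 to 0.43 for Bub1, close to the gap of 0.36 in the profile they were picked to match. Of the 10 genes, Cdca8 (0.087) was closest to the mean of the other 9 and Kif11 (0.35) and Tpx2 (0.33) were farthest. The measure compares shape over arrays that share a reference and a processing, and it says nothing of shared control.

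Markers of macrophages and of fibroblasts moved between the cell types too. The mean of 6 measured macrophage markers of 12 listed (Lyz2, C1qa, C1qb, C1qc, Lcp1 and Fcer1g) lay between -0.43 and -0.21 over the WT arrays and between -1.56 and -1.28 over the M833 arrays. Of these markers 6 of 6 fell, where 15.9% of all features fell. The mean of 9 measured fibroblast markers of 11 listed lay between -0.35 and 0.074 in WT and between -0.66 and -0.25 in M833, and 6 of 9 fell and none rose. The part of these shifts in the mitotic differences was not tested. Between the WT sets, where the mean of the mitotic genes moved by 0.36, the macrophage markers had means of -0.28 and -0.34 and the fibroblast markers of -0.18 and -0.13. Between the M833 sets, where the median gap of the mitotic genes was 0.18, the macrophage markers had means of -1.36 and -1.43 and the fibroblast markers of -0.52 and -0.39. As the make-up of the reference is not given, ratios cannot show whether a marker was present or absent in either cell type. Array medians lay between -0.017 and 0.072.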

How the data were processed

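The members and gene lists, the sets of arrays and the alternatives were chosen with earlier results of these data known. The deposited values are log2 ratios made by the authors. Limma, without a version, is named per the submitters' processing notes, while background correction, normalisation and probe filters are unstated in the sources read. The scale was taken from the values, whose largest is 15.35. Scanner signals were not used here, so dim probes could not be removed. Of 15247 probes 9600 had one gene symbol; probes of one gene were averaged, which left 12761 features with 0 missing values. Arrays were grouped by the source label of the channel holding the cells, and replicates were numbered in series order. Features were fitted with limma 3.58.1 in R 4.3.3 (lmFit, eBayes) on 16 arrays with cell type and dye orientation, and Benjamini-Hochberg adjusted p-values under 0.05 were called. Errors are standard errors of the fit unless named SD. The fit was tested on simulated data in which arrays varied independently, so sets of arrays that move together were not covered. Named genes were all members, per class of other mitotic genes the up to 3 largest called in each direction and up to 2 uncalled ones with the smallest difference, the 2 largest called replication genes, and the 6 nearest profiles. Motifs were searched in the RefSeq promoter table, and the promoter of 1 member is not reported here. Alternatives covered centring, scaling, the dye term, single probes, extreme values, one dye, arrays or sets left out, and sets as block or unit. Precision is limited by the number of arrays and by the unknown number of separate cultures. The standard errors treat arrays as independent, though arrays moved together in sets of 4, so they may be too small.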

Additional observations from a re-analysis of the deposited data

Results flagged for a closer look

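Each gene's 8 arrays of one cell type were checked for an array apart from the rest, in 20 groups in all, and 2 were found, where chance gives about 1 in 20 groups. Kif11 was at -1.11 on M833 replicate 2, and the next lowest M833 array was at 0.089. The gap was 0.82 of the group's range, above Dixon's critical value for 8 samples. Tpx2 was at 0.53 on WT replicate 7, and the next highest WT array was at 0.115, a gap of 0.70 of the range.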

How the results depend on the processing

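No paired analysis was possible because the labels give no replicate numbers. The 3301 features called became 2000 without a dye term, 835 with the cells in Cy5 only, 1100 in Cy3 only, 1685 without M833 replicates 1, 2, 5 and 6, 1858 without M833 replicates 3, 4, 7 and 8, 1465 with sets of 4 arrays as a random block and 0 with set means as replicates (limma; 1675 at an unadjusted p under 0.05). The 65 other mitotic genes called higher became 22 in Cy5 only and 29 in Cy3 only, where 2.25% and 3.18% of all features were higher. They became 40 without M833 replicates 6, 7 and 8 (6.72% of all features) and 28 without M833 replicates 3, 4, 7 and 8 (5.48%). With set means they became 0, as did all features, or 28 unadjusted, against 4.57% of all features. With WT replicates 1, 2, 5 and 6 removed the median member difference was 0.90, and with WT replicates 3, 4, 7 and 8 removed it was 0.48. Members called against the reference in WT numbered 2 in Cy5 only, 7 without WT replicates 1, 2, 5 and 6 and 2 with set means. Nothing is read from counts of members against the reference, as the shares of all features in these settings are not given here. Leaving out one array gave 2878 to 3295 features and 60 to 68 other mitotic genes, with 8.73% to 9.91% of all features higher. It also gave a median of 0.64 to 0.72, and 3 to 5 members against the reference in WT. Members were chosen for a difference above 0, and settings such as the random block leave it as it is by construction, so its sign is no support. It was below 0 for Kif11 at -0.037 without M833 replicates 3, 4, 7 and 8, for Cdca3 at -0.050 without WT replicates 3, 4, 7 and 8, and for the second Cdca3 probe at -0.11. The M833 arrays then left for Kif11 held replicate 2 at -1.11, with the others at 0.089, 0.18 and 0.26. The cause of the values below 0 was not tested. Signal over background was not used here, so its limit on single probes is unknown.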

Other observations

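The fitted differences of Haus8, Mad2l1 and Mcm10 were -1.81, -1.38 and -0.93, did not pass the test, and were chosen for mention after their values were seen. WT replicate 2 read 13.67, 8.61 and 7.27 for them, while the other WT arrays reached at most 0.95, 1.245 and 0.21. That array held 49 probe values beyond 8 in size. Without that array the differences were -0.15, -0.38 and -0.032, and Mad2l1, which encodes the spindle checkpoint protein Mad2, was then called lower (adjusted p = 0.027, limma), against the direction of most mitotic genes.

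Named genes were also counted by promoter motif. Of 414 with both TTTGAA and CCAAT 78 were called higher in M833 (18.8%, limma), of 414 with TTTGAA only 45 (10.9%), of 2073 with CCAAT only 284 (13.7%) and of 2850 with neither 346 (12.1%). The median differences in that order were -0.013, -0.029, -0.030 and -0.024. Without the members and the other mitotic genes the shares were 13.9%, 9.43%, 13.1% and 11.9%. These shares were computed after the motif matches were seen, and no test was made.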
